A study of Homo sapiens with 4 samples.

Results

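The nuclear genes for subunits of the respiratory chain and of ATP synthase were examined in cancer cells that received either the microRNA miR-891b or NC1, a control RNA. Members were the genes whose name on the array began with NDUFA, NDUFB, NDUFC, NDUFS or NDUFV and a digit, with UQCR, with COX4 to COX8 or with ATP5, together with SDHA, SDHB, SDHC and SDHD. The rule took in 89 of 43317 gene names, with 125 probes on 170 spots. Of these, 83 are subunits, with 38 of complex I, 4 of complex II, 8 of complex III, 17 of complex IV and 16 of complex V, and 8 of the 83 are tissue isoforms or near copies of another member. The other 6 names are 2 protein genes that are not subunits (ATP5S and ATP5SL), 3 antisense RNAs and 1 pseudogene, and they were kept out of every count of subunits. Total RNA from HCT116, a colorectal cancer line, and A549, a lung cancer line, was hybridised to 1-colour arrays, with 1 array for NC1 and 1 for miR-891b in each line. All 4 groups had been transfected with Dharmafect1, and the labels give no dose and no time after transfection.

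The respiratory chain passes electrons from NADH and succinate to oxygen through complexes I to IV of the inner mitochondrial membrane, and ATP synthase, complex V, uses the proton gradient they build to make ATP. Every complex except complex II mixes subunits of nuclear genes with subunits of mitochondrial DNA, so both genomes have to be expressed for the chain to be built. Nuclear subunit genes are abundantly transcribed in most cells, and many of their promoters are bound by NRF1, by the ETS factor GABP and by YY1. MicroRNAs pair through their seed, bases 2 to 8, with complementary sites in target mRNAs and lower the level or the translation of those mRNAs. The name NDUFA4 dates from its assignment to complex I, although it is now counted as a subunit of complex IV. In the counts and medians by complex below, and among the accessory subunits, NDUFA4 was kept with complex I by its name. Names are those of the array design, in which the ATP synthase genes carry older symbols.

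The transfected microRNA is shown first because its seed decides which probe sequences hold a match. The mature sequence of RefSeq (GRCh38.p14, chromosome X, 146001100 to 146001121, minus strand) is printed with the seed in capitals.
hsa-miR-891b: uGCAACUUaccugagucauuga
The DNA complement of the seed, AAGTTGC, was searched in the strand printed on the array, which is that of the mRNA. Of 104 probes for subunits that were well above background on all 4 arrays, 1 held it, against 95 of 23211 probes of all genes (0.409%). The probe was that of NDUFS8, on chromosome 11 at 67803956 to 67804015 (hg19), and 30 of its bases are shown with the match in capitals.
NDUFS8: acaacaaggagAAGTTGCtcaacaacgggg
Among the 104 probes, those that represent SDHD and UQCRFS1 and a further probe of SDHC matched 6 bases of the seed complement. SDHD and UQCRFS1 matched bases 3 to 8, with probes at 111965866 to 111965925 of chromosome 11 and 29698356 to 29698415 of chromosome 19. Counting NDUFS8, bases 3 to 8 were matched in 3 of 104 subunit probes, against 465 of 23211 probes of all genes. Bases 2 to 7 were matched in 2 of 104 (NDUFS8 and SDHC), against 284 of 23211 (1.22%). The probe of COX7B2, not well above background on any array, also matched bases 2 to 7.
SDHD: gaattatatctAAGTTGtgagactgagttc
UQCRFS1: gccttctgtacttgAAGTTGatttgaaata
A probe covers 60 bases, so most of each mRNA was outside this search, and a match in it is a description of the sequence only.

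Levels are log2 processed signal minus the 75th percentile of the array, so that 0 is the 75th percentile of gene probes, and a change is the difference of this level between 2 arrays. A gene was read from its brightest probe and counted as measured in a comparison only if both of its arrays showed that probe well above background. Each group is 1 array, so changes were not checked on replicates and carry no p-value, and precision is limited by the number of arrays. Changes were called by size, at 2-fold or more. Both arrays of a line lay on the same slide, so that cell line and slide cannot be told apart. Probes printed at 5 or more spots gave a median SD of a log2 difference of 0.061 in HCT116 (276 probes) and 0.071 in A549 (286 probes), which covers the spots only. On the HCT116 miR-891b array 10.5% of gene spots lay in areas of stray signal, against 0.021% to 2.20% on the other arrays. Such areas held the probes of SDHA, COX7A2, COX7C, ATP5O, NDUFA10, NDUFS6 and UQCRB on that array and of COX6B2 on A549 miR-891b, and leaving them out turned neither subunit median. Of the markers of HCT116, EPCAM had a level of 6.86 on HCT116 NC1 and 1.94 on A549 NC1, and CDX2 of 2.50 and -2.72. Of the markers of A549, ALDH1A1 had 9.48 on A549 NC1 and was not well above background on HCT116 NC1, where it was at least 8350-fold lower. The labels also describe fibroblast cultures, and of 7 fibroblast markers COL1A2, COL3A1 and DCN were not well above background on any array. PDGFRB and COL1A1 were measured on all 4 arrays, and LUM and THY1 on both A549 arrays, where they changed by 2.14 and -1.04 after miR-891b. The part of such cells in the subunit values was not tested.

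Most subunits gave a signal on every array. On all 4 arrays 77 of 83 subunits were well above background, with 37 of 38 in complex I, 4 of 4 in complex II, 8 of 8 in complex III, 12 of 17 in complex IV and 16 of 16 in complex V. Across the 77 subunits the level on HCT116 NC1 and that on A549 NC1 had a Pearson r of 0.92 and a Spearman rho of 0.92, close to 0.91 and 0.90 over all 18061 genes. Probes differ in their response, so signal serves below only to choose comparison genes and is not read as an order of mRNA levels between genes.

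The brightest probe of each complex is given with its level on every array. ATP5E, the epsilon subunit of the ATP synthase stalk, had levels of 9.28 (NC1) and 9.21 (miR-891b) in HCT116 and 9.47 (NC1) and 9.22 (miR-891b) in A549. UQCRQ, a small subunit of complex III, had 9.12, 9.07, 9.14 and 9.04 on the same arrays, in the order used for 4 values throughout. COX6A1, the broadly expressed form of a complex IV subunit, had 8.99, 8.86, 9.14 and 8.97. In these 3 genes the values of HCT116 and of A549 overlap. NDUFB9, an accessory subunit of complex I, had 9.02, 9.0, 7.94 and 7.71 and was lower on both A549 arrays. SDHA, the flavoprotein of complex II, had 6.10, 6.01, 6.25 and 6.14.

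**Figure D1:**
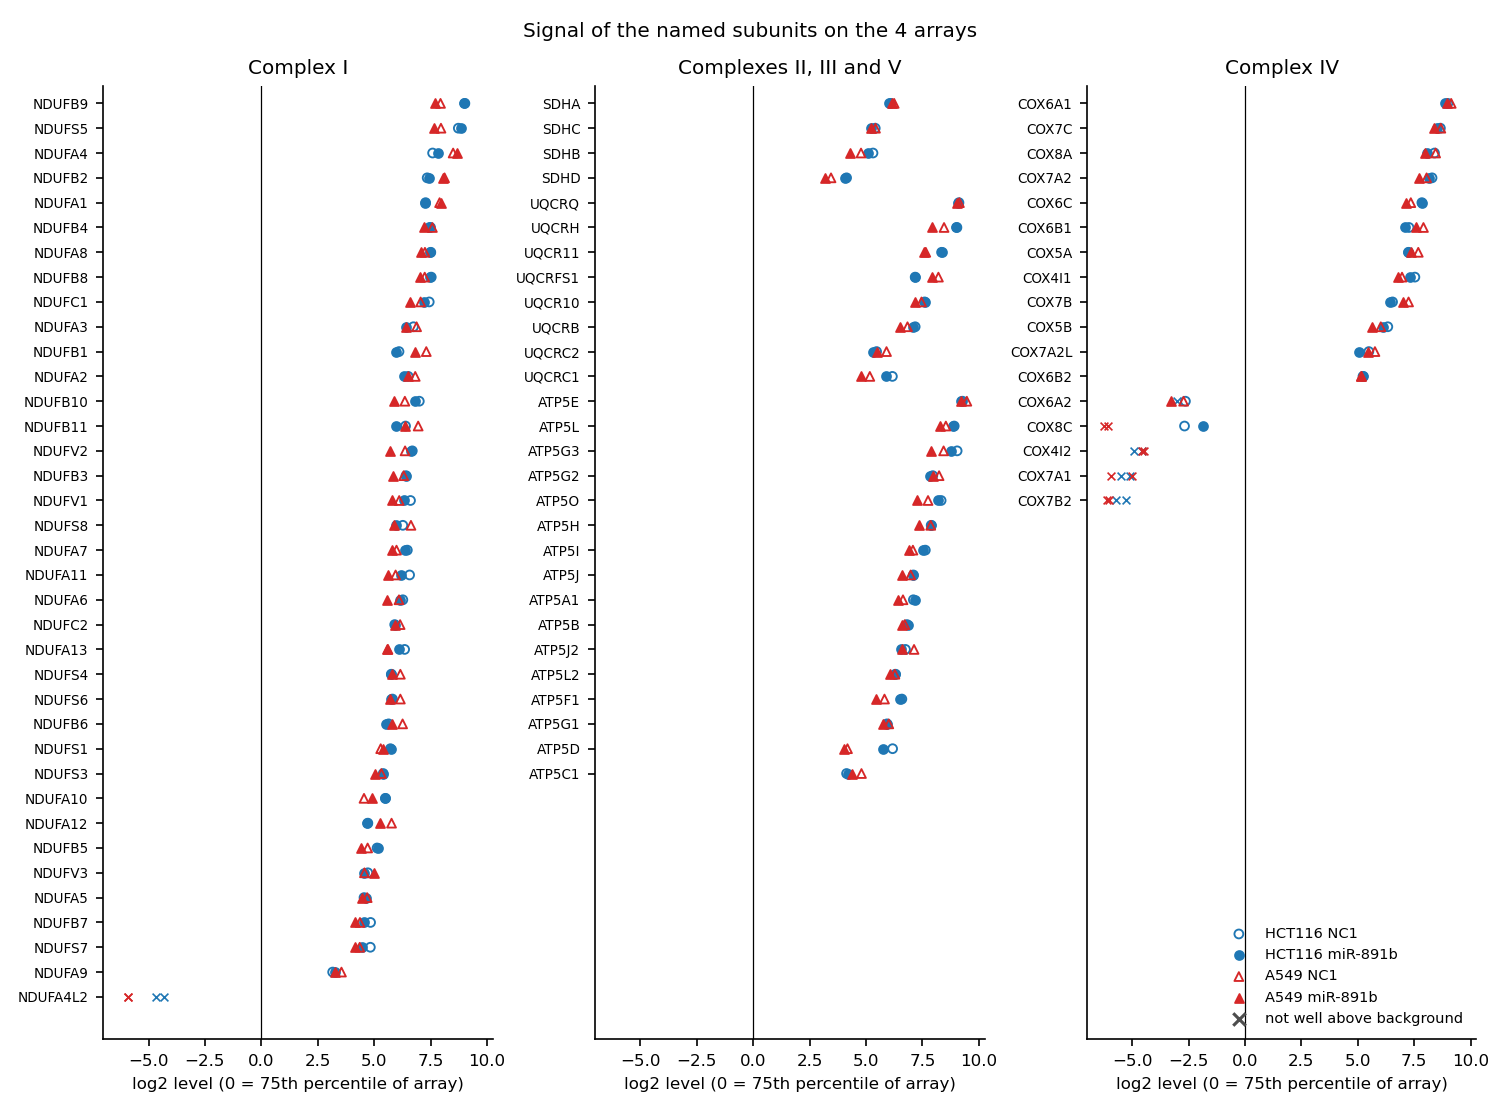
Level of the subunits named on the vertical axes on the 4 arrays, with the log2 level (0 = the 75th percentile of the array) on the horizontal axis, circles for HCT116, triangles for A549, open symbols for NC1 and filled ones for miR-891b. Most subunits lie well to the right of 0 with the 4 symbols close together, and crosses mark the values not well above background, all of them in tissue isoforms.

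The isoforms known from muscle, lung, testis or hypoxic cells were dim, except COX6B2 by its brightest probe. COX4I2, the lung and hypoxia form of subunit 4, COX7A1, the heart and muscle form of subunit 7A, COX7B2, a form of subunit 7B known from testis, and NDUFA4L2 were not well above background on any array. COX8C, the testis form of subunit 8, had levels of -2.68 on HCT116 NC1 and -1.87 on HCT116 miR-891b and was not well above background on either A549 array, which put it at least 2.42-fold higher in HCT116 NC1 than in A549 NC1. COX6A2, the heart and muscle form of subunit 6A, had -2.64 on HCT116 NC1 and, in A549, -2.72 with NC1 and -3.26 with miR-891b, and was not well above background on HCT116 miR-891b. COX6B2 had 5.12 to 5.24 on the 4 arrays by its brightest probe and -2.14 on HCT116 NC1 by its second probe, so the level of this isoform depends on the probe read.

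In HCT116, 78 subunits were measured and 0 passed 2-fold in either direction after miR-891b. Over all 19104 measured genes 0.843% passed 2-fold lower and 1.16% passed 2-fold higher. The subunits ranged from -0.44 (NDUFB11) to 0.81 (COX8C), with a median of -0.08 and an SD of 0.18 across subunits. COX8C, dim in this line, was also the 1 subunit past 1.5-fold higher, a size that 3.91% of all genes reached. Changes below 0 were found in 58 of 78 subunits (74.4%), against 55.5% of all genes, whose median was -0.04. Genes as bright as the subunits, defined as those at or above a mean level of 5.54, which the lowest quartile of the subunits sets, were below 0 in 66.3% of 1366 cases with a median of -0.09. The share of subunits below 0 is therefore read beside the bright genes, a set that includes the subunits at or above that level. Medians by complex were -0.07 for I, -0.13 for II, -0.03 for III, -0.13 for IV and -0.06 for V.

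In A549, 78 subunits were measured and again 0 passed 2-fold, where 9.58% of all 21336 measured genes did in either direction and 5.57% passed 2-fold lower. The subunits ranged from -0.73 (NDUFS8) to 0.41 (NDUFV3), with a median of -0.30 and an SD of 0.20. NDUFS8 and NDUFV2 were the 2 subunits past 1.5-fold lower, a size that 15.3% of all genes reached, and no subunit passed 1.5-fold higher. Changes below 0 were found in 73 of 78 subunits (93.6%), against 55.6% of all genes, whose median was -0.06. The equally bright genes were below 0 in 74.5% of 1367 cases with a median of -0.28 and an SD of 0.52, and 123 of them passed 2-fold lower and 7 passed 2-fold higher. The median of the subunits thus lay beside that of the bright genes, which include many of them, while the spread of the subunits was narrower. In bulk RNA, fewer cells with an mRNA and less of it per cell cannot be told apart. Medians by complex lay between -0.32 and -0.23, with -0.31 for I, -0.23 for II, -0.32 for III, -0.29 for IV and -0.27 for V.

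**Figure D2:**
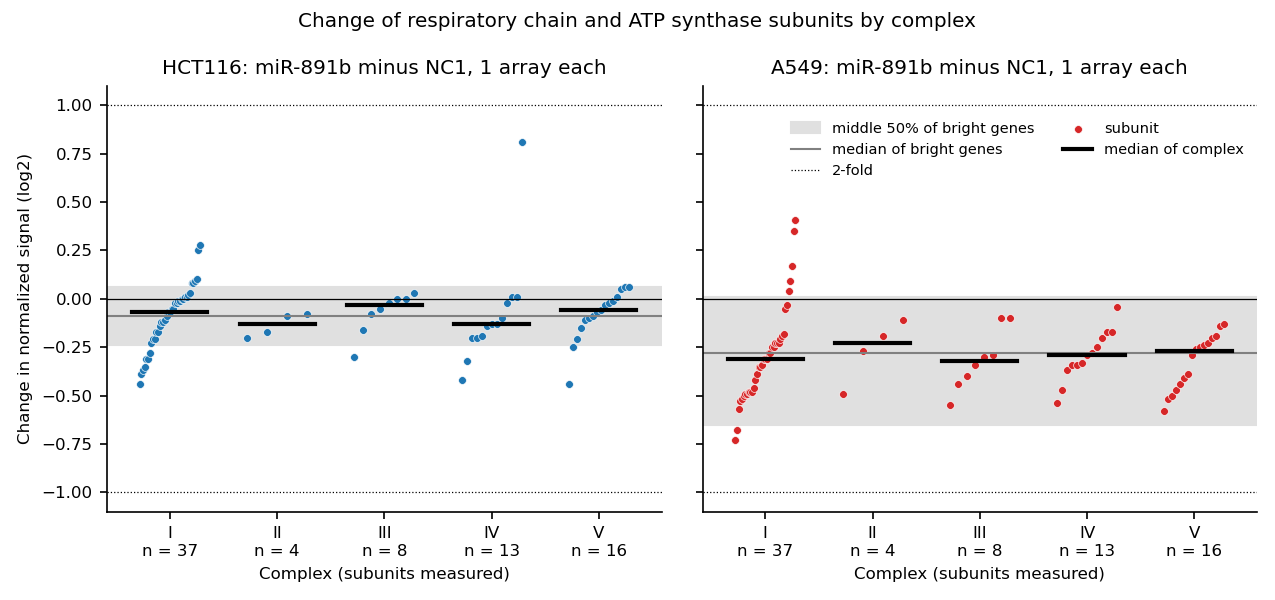
Change of each measured subunit by complex, as the log2 difference miR-891b minus NC1, with 1 array per group; points are subunits, black bars the complex medians, the grey band the middle 50% of equally bright genes, the grey line their median, and dotted lines 2-fold. No subunit reaches 2-fold in either line, and the 5 complex medians lie near the line of the bright genes, at -0.13 to -0.03 in HCT116 and -0.32 to -0.23 in A549.

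The direction of these medians depended on how the arrays were put on one scale. Over the 77 subunits measured on all arrays, the A549 median was -0.29 with the 75th percentile, -0.23 with median scaling, -0.0025 with quantile normalization and 0.03 with normexp background correction and quantile normalization. The median of 1366 equally bright genes moved with it, from -0.28 to -0.22, 0.04 and 0.05. In HCT116 the subunit median was -0.08, -0.04, 0.02 and 0.02 under the same settings. The SD across subunits in A549 was 0.20 to 0.23 under these settings, and that of the bright genes 0.52 to 0.54. Under quantile normalization 6.59% of bright genes still passed 2-fold in A549, and 0 subunits did. What all settings gave was thus a narrow group of changes with no member past 2-fold, and the sign of its centre was not settled. The sign of some members was the same under all 5 settings, which are not independent checks. The authors' values nearly repeat the 75th-percentile scaling, median scaling moves each array by a constant, and the remaining settings share quantile normalization. In A549, 35 of 77 subunits were below 0 and 5 above 0 under all 5 settings, and 37 changed sign with the setting. Under quantile normalization alone 39 were below 0 there, and 33 in HCT116. In HCT116, 31 were below 0 and 16 above 0 under all 5, and 30 changed sign. No share of all genes is given for these counts, so they are not read as a result about the subunits.

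**Figure D3:**
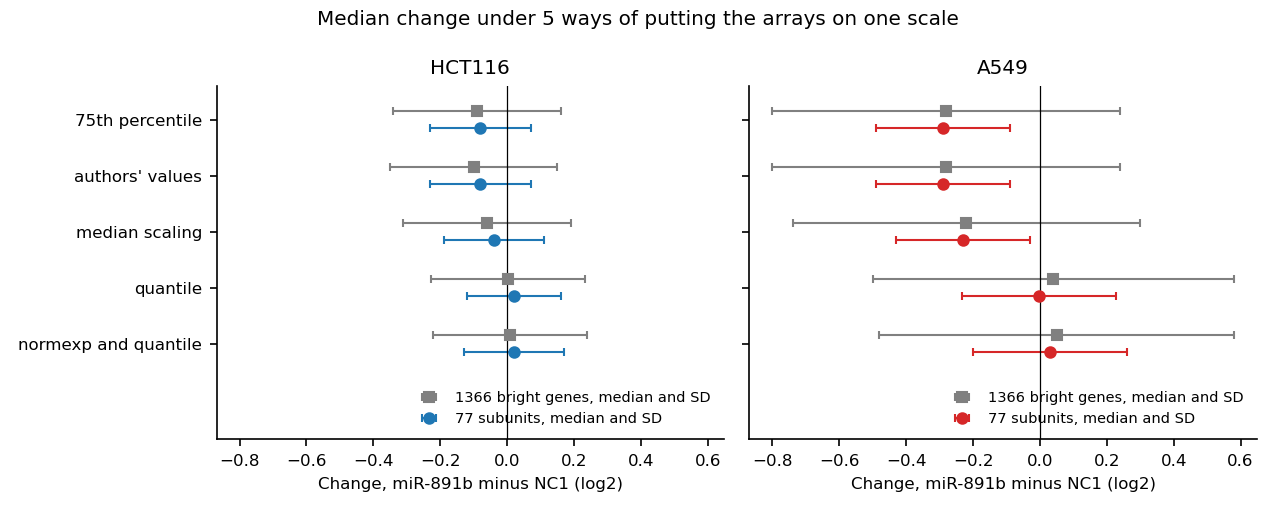
Median change (log2, miR-891b minus NC1) of 77 subunits (coloured circles) and of 1366 equally bright genes (grey squares) in HCT116 and A549 under 5 ways of scaling the arrays; bars are the SD across genes. In A549 both medians move from near -0.3 to near 0 with quantile normalization, and the bar of the subunits stays shorter than that of the bright genes.

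Complex I takes electrons from NADH at its N module and hands them to ubiquinone at its Q module, and 7 core subunits of these modules have nuclear genes. NDUFS8, a core subunit of the Q module that carries iron-sulfur clusters, had levels of 6.27 (NC1) and 5.96 (miR-891b) in HCT116 and 6.63 (NC1) and 5.90 (miR-891b) in A549. It was the lowest of all subunits in A549, at -0.73 or 1.66-fold lower, and was -0.31 in HCT116, below 0 under all 5 settings in both lines. Its single probe holds the seed complement shown above. NDUFV2, an iron-sulfur subunit of the N module (probe at 9122594 to 9122653 of chromosome 18, hg19), had 6.69, 6.64, 6.37 and 5.69 on the 4 arrays. Its change was -0.68 in A549 and -0.05 in HCT116, and its second probe gave -0.61 and 0.02. NDUFV2 thus stood lower on the A549 miR-891b array than on the other 3 by both probes.

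NDUFS7, another core subunit of the Q module, had changes of -0.37 and -0.19. NDUFV1, which binds NADH, had -0.28 and -0.31. NDUFS1, the largest core subunit, had 0.01 and 0.09, and NDUFS3 had 0.01 and -0.28. NDUFS7 thus lay below 0 in both lines under all 5 settings, and NDUFS3 did so in A549. NDUFV1 lay below 0 under all 5 settings in HCT116 only, and its A549 change was 0.03 with normexp correction and quantile normalization. NDUFS1 was near 0 in both lines by the values above, and its A549 change was 0.32 under quantile normalization.

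Of the 30 accessory subunits measured, 22 were below 0 in HCT116 and 26 in A549, with medians of -0.07 and -0.31. NDUFB11, a small subunit of the membrane arm, had 6.39, 5.95, 6.95 and 6.38 and was lower by a like amount in both lines, at -0.44 and -0.57. NDUFA11 (-0.39 and -0.35) and NDUFA3 (-0.35 and -0.49), both of the membrane arm, were likewise low in both lines. The 11 NDUFB names were all below 0 in A549 at the 75th percentile, from -0.57 to -0.05, and 4 of them (NDUFB2, NDUFB4, NDUFB8 and NDUFB9) were above 0 under quantile normalization.

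The 5 subunits above 0 in A549 all carried complex I names, and they stayed above 0 under all 5 settings. NDUFV3, a small subunit of the N module (probe at 44328997 to 44329056 of chromosome 21, hg19), had 4.72, 4.55, 4.57 and 4.98, a change of 0.41 in A549 and -0.17 in HCT116. Its second, dimmer probe gave -0.35 in both lines, so that the 2 probes of NDUFV3 disagree in sign in A549. NDUFA10, an accessory subunit on the matrix side, had 5.50, 5.50, 4.55 and 4.90, a change of 0.35 in A549, with 0.22 and -0.03 from its further probes. NDUFA4 had 7.59, 7.84, 8.5 and 8.68, at 0.25 in HCT116 and 0.17 in A549. NDUFS1 (0.09) and NDUFA1 (0.04) completed the 5. NDUFA4 and NDUFS1 were the 2 subunits above 0 in both lines.

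Complex II oxidises succinate and has nuclear genes for all of its subunits. SDHB, the iron-sulfur subunit, had 5.31, 5.11, 4.78 and 4.28, the lowest change of the complex in both lines at -0.20 in HCT116 and -0.49 in A549. SDHA had -0.09 and -0.11, and its 3 further probes gave -0.07 to 0.12 in HCT116 and -0.19 to -0.02 in A549. The membrane anchors SDHC and SDHD had -0.17 and -0.08 in HCT116 and -0.19 and -0.27 in A549. In SDHD all 3 probes were below 0 in A549, at -0.27, -0.41 and -0.44, whereas the probes of SDHC ranged from -0.42 to 0.20 there. SDHD had the highest change of the complex in HCT116, with levels of 4.14, 4.07, 3.45 and 3.18.

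Complex III passes electrons from ubiquinol to cytochrome c. UQCRH, the hinge protein beside cytochrome c1, had 9.03, 9.01, 8.46 and 7.91, with changes of -0.02 in HCT116 and -0.55 in A549, and its second probe gave -0.11 and -0.52. UQCRC1, a core protein, had 6.17, 5.87, 5.17 and 4.76, the lowest change of the complex in HCT116 at -0.30 and -0.40 in A549. UQCRC2, the other core protein, was printed at 10 spots and changed by a mean of -0.16 ± 0.044 (SD, n = 10 spots) in HCT116 and -0.44 ± 0.069 (SD, n = 10 spots) in A549. UQCR10 had 7.60, 7.63, 7.46 and 7.17, the highest of the complex in HCT116 at 0.03 and -0.29 in A549. UQCRFS1, the Rieske iron-sulfur protein, had 0.0023 and -0.30, and UQCRQ had -0.05 and -0.10, among the highest of the complex in A549. UQCRB had -0.08 and -0.34 by its brightest probe, and its dim second probe gave 1.11 in A549, the widest disagreement between probes of a subunit at 1.45.

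Complex IV reduces oxygen, with a catalytic centre made from mitochondrial DNA and a ring of nuclear subunits. COX7A2L, which is known for joining complexes III and IV, had 5.49, 5.07, 5.76 and 5.47, the lowest change of the complex in HCT116 at -0.42 and -0.28 in A549. Its second probe gave -0.37 and -0.22. COX8A, the broadly expressed subunit 8, had 8.40, 8.08, 8.45 and 7.98, at -0.32 and -0.47, with -0.27 and -0.63 from its second probe. COX8A was the lowest in A549 after the dim isoform COX6A2, which had -0.54. COX4I1, COX6A1 and COX5B had -0.20, -0.13 and -0.19 in HCT116 and -0.17, -0.17 and -0.37 in A549. COX7C, printed at 10 spots, changed by -0.14 ± 0.018 (SD, n = 10 spots) and -0.29 ± 0.052 (SD, n = 10 spots). COX6B2 was nearest 0 in A549, at -0.04. In A549 COX5B was below 0 under all 5 settings. The sign of the other subunits named here and measured on all arrays changed there with the setting.

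ATP synthase couples a membrane rotor of c subunits to a catalytic head through a central and a peripheral stalk. ATP5G3, 1 of 3 genes for the c subunit, had 9.04, 8.79, 8.44 and 7.86, the lowest change of the complex in A549 at -0.58 and -0.25 in HCT116. The other c subunit genes, ATP5G1 and ATP5G2, had -0.26 and -0.29 in A549 and -0.02 and -0.11 in HCT116. ATP5D, the delta subunit of the central stalk (probe on chromosome 19 between 1242585 and 1244131, hg19), had 6.18, 5.74, 4.18 and 4.04, the lowest of the complex in HCT116 at -0.44 and -0.14 in A549. Of the catalytic head, ATP5A1 had 7.10, 7.16, 6.64 and 6.44, the highest change of the complex in HCT116 at 0.06, with -0.20 in A549. ATP5B had 6.82, 6.87, 6.72 and 6.60, the highest in A549 at -0.13, with 0.06 in HCT116. ATP5B and ATP5A1 were above 0 in A549 under quantile normalization, at 0.21 and 0.08. The peripheral stalk genes ATP5F1, ATP5H, ATP5J and ATP5O had -0.50 to -0.39 in A549 and -0.15 to 0.01 in HCT116. In A549 these 4 stalk genes were below 0 under all 5 settings.

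Of the 77 subunits, 55 (71.4%) were lower in both lines, against 53.1% of the equally bright genes and 33.8% of all genes, 2 were higher in both, 17 were higher in HCT116 and lower in A549, and 3 the reverse. These counts depended on the scaling. Under quantile normalization 24 subunits (31.2%) were lower in both lines, against 28.8% of the bright genes and 29.1% of all genes, and with normexp correction as well 20 were (26.0%), against 29.1% of both. Median scaling gave 45 (58.4%), against 45.9% of the bright genes. Across subunits the changes in HCT116 and A549, which share no array, had a Pearson r of 0.27 and a Spearman rho of 0.29, and over 18061 genes both were 0.13. The change was more negative in A549 than in HCT116 for 66 of 77 subunits, 72.2% of the bright genes and 54.3% of all genes, and under quantile normalization for 32 of 77 subunits and 47.9% of all genes. Across subunits, the share of G and C in the probe and the change in HCT116 had a Pearson r of -0.42 and a Spearman rho of -0.30 (n = 77 subunits), against -0.02 and -0.08 over the 1366 bright genes. Ranked by G and C, the top 26 subunits, at 45.0% to 66.7%, had a median of -0.20 in HCT116. The lowest 26, at 33.3% to 40.0%, had -0.06, and the 25 between them, at 40.0% to 45.0%, had -0.05. These groups meet at 40.0% and 45.0%, where subunits of equal share were divided between them. The 11 measured subunits encoded on chromosome 19, among them ATP5D, NDUFA11, NDUFS7, NDUFA3 and NDUFB7, had a median of -0.23 in HCT116, against -0.07 for the other subunits. In A549 the same r was 0.01. The part of base composition in the HCT116 changes was not tested.

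**Figure D4:**
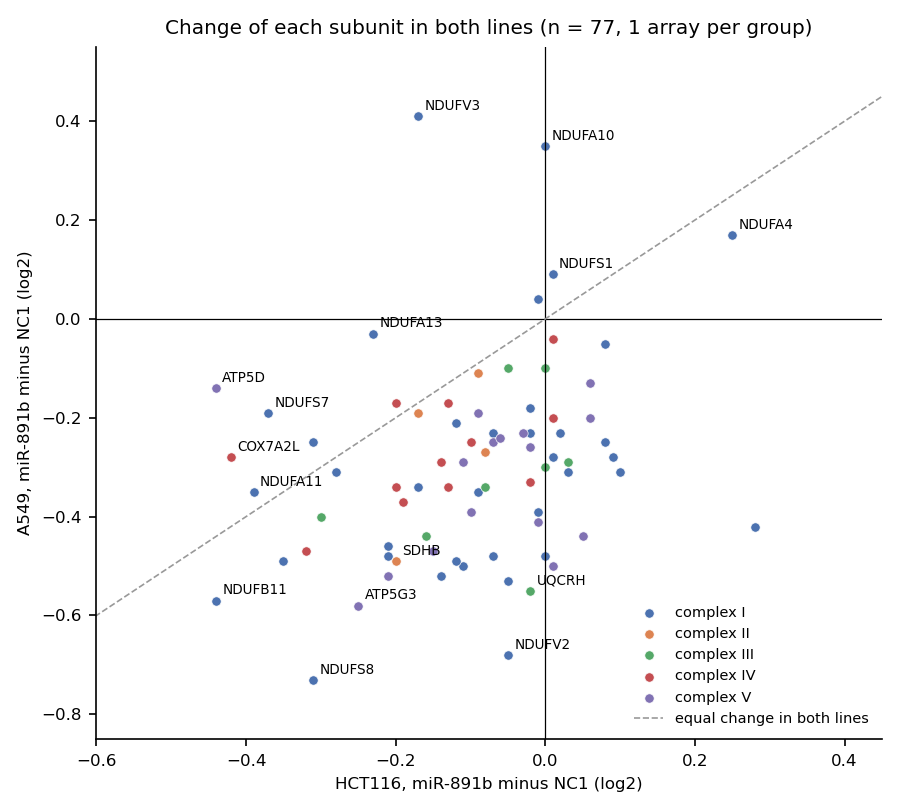
Change of each of 77 subunits in HCT116 (horizontal axis) and in A549 (vertical axis), as log2 differences of miR-891b minus NC1, coloured by complex, with the dashed line for equal change. At the scaling shown most points lie below the dashed line and below 0 on the vertical axis, where quantile normalization put 32 of 77 below the line and 39 below 0, and NDUFV3, NDUFA10 and NDUFA4 stand apart from the main group.

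Subunits with several probes or spots show how far a value depends on the probe. For 20 subunits with 27 further measured probes, all probes gave 1 sign in 14 subunits in HCT116 and in 14 in A549. The median size of the difference from the brightest probe was 0.06 in HCT116 and 0.11 in A549, and the largest was 0.25 and 1.45. NDUFS5, an accessory subunit printed at 10 spots, changed by 0.10 ± 0.044 (SD, n = 9 spots) in HCT116 and -0.31 ± 0.082 (SD, n = 10 spots) in A549. NDUFS6 changed by -0.07 ± 0.037 (SD, n = 10 spots) and -0.48 ± 0.064 (SD, n = 10 spots). In A549 every spot of both genes was below 0, from -0.46 to -0.22 for NDUFS5 and from -0.54 to -0.33 for NDUFS6. Repeated spots share the arrays and their scaling, so they do not settle a sign. In A549 NDUFS6 was below 0 under all 5 settings, whereas the sign of NDUFS5 changed with the setting.

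Of the 6 names that are not subunits, 2 passed 2-fold in A549, and both were lower, where 5.57% of all genes passed 2-fold lower. ATP5SL, now named DMAC2 and known for complex I assembly, had 5.03, 4.92, 5.86 and 4.51, and its 9 spots changed by -1.35 ± 0.069 (SD) in A549 and -0.10 ± 0.091 (SD) in HCT116. It remained below -1 in A549 under quantile normalization, at -1.09. NDUFA6-AS1, the antisense neighbour of NDUFA6, had -1.13, -1.74, -0.85 and -2.05, a change of -1.20 in A549, and -0.35 with normexp correction. The other probes above background on all arrays gave 0.41 and -1.11 in A549, and both hold the seed complement. A further probe, above background on both A549 arrays, gave -0.10, so the value depends on the probe. ATP5S, now named DMAC2L, had -0.57 in HCT116 and -0.51 in A549. NDUFB2-AS1 had 0.21 and -0.21 and NDUFV2-AS1 -0.19 and -0.03. No array showed the pseudogene UQCRBP1 well above background.

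Between the lines, on the NC1 arrays, 3 subunits passed 2-fold lower in A549 and 3 passed 2-fold higher, where 16.2% of all 19217 measured genes passed 2-fold lower and 11.1% passed 2-fold higher. ATP5D was 3.99-fold lower in A549 NC1 than in HCT116 NC1, at -2.0, and -1.70 between the miR-891b arrays. NDUFB9 was 2.12-fold lower, at -1.08 and -1.30. UQCRC1 stood at the threshold with 2.0-fold lower, at -1.0 and -1.11. NDUFB1, a membrane-arm subunit of complex I, had 6.10, 5.98, 7.31 and 6.81 and was 2.32-fold higher in A549 NC1. NDUFA12, an accessory subunit, had 4.72, 4.67, 5.77 and 5.24 and was 2.07-fold higher, with 1.28 on the log2 scale from its second probe. UQCRFS1 had 7.18, 7.19, 8.21 and 7.91 and was 2.04-fold higher. Just inside 2-fold lay NDUFA10 at -0.95 and NDUFA4 at 0.92. At 1.5-fold, 12 subunits were lower and 10 higher, against 28.5% and 20.1% of all genes.

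The 77 subunits had a median difference between the lines of -0.09 on the NC1 arrays with an SD of 0.56. Under quantile normalization the split of calls was 1 lower (ATP5D) and 5 higher, with NDUFA4 (1.20) and NDUFB2 (1.05) added, and the median was 0.10. The line difference measured on the miR-891b arrays shares no array with that on the NC1 arrays, although it shares the slides and the probes. The pairs had a Pearson r of 0.92 and a Spearman rho of 0.92 over 77 subunits, and 65 of 77 had the same sign. On the miR-891b arrays 6 subunits passed 2-fold lower in A549 (ATP5D, ATP5F1, NDUFB9, NDUFS5, UQCRC1 and UQCRH) and 0 passed 2-fold higher. The subunit median on that pair was -0.30, against -0.09 on the NC1 arrays. No share of all genes is given for that pair, so these counts are not read as a result about the subunits. The differences of ATP5D, NDUFB9 and UQCRC1 thus passed 2-fold on both pairs, and those of NDUFB1 (0.83), NDUFA12 (0.57) and UQCRFS1 (0.73) kept their sign and not their size.

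**Figure D5:**
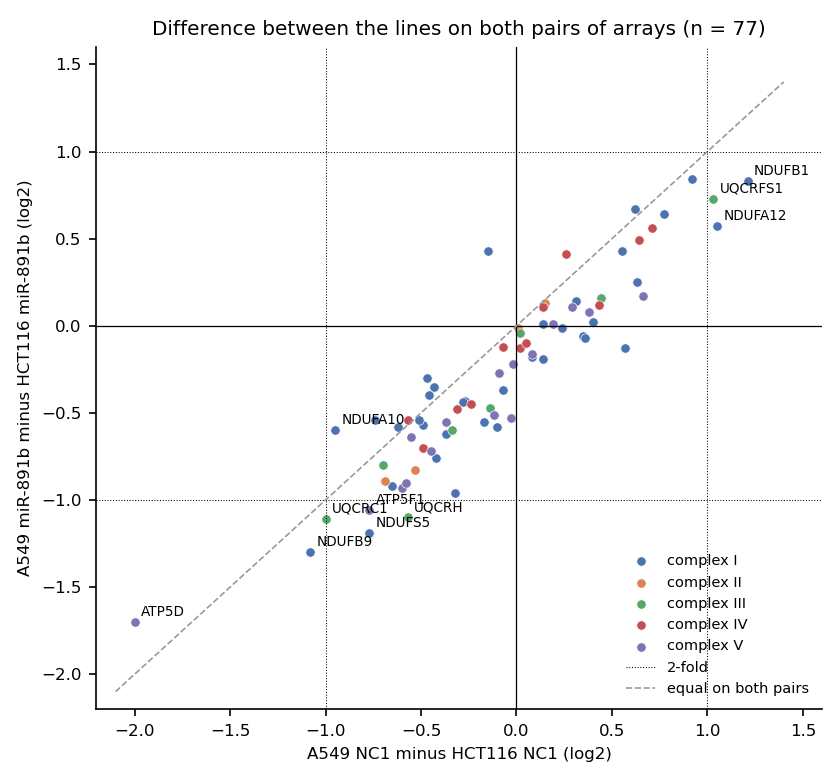
Difference between the lines for 77 subunits, A549 minus HCT116 in log2 units, on the NC1 arrays (horizontal axis) and on the miR-891b arrays (vertical axis), coloured by complex, with dotted lines at 2-fold and a dashed line for equal values. The points follow the dashed line with ATP5D at -2.0 and -1.70 as the lowest, and most lie below it.

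Of 10 genes of mitochondrial DNA with measured probes, 9 were below 0 in HCT116, against 55.5% of all genes and 66.3% of the bright genes. In A549 7 of 10 were, against 55.6% of all genes and 74.5% of the bright genes. Their medians were -0.31 in HCT116 and -0.16 in A549. ND5, a membrane-arm subunit of complex I, had -0.63 in HCT116 and 0.15 in A549, and CYTB, the cytochrome b of complex III, had -0.32 and 0.0095. Under quantile normalization the HCT116 median stayed below 0, at -0.15, with 7 of 10 genes below 0. Under that setting the A549 median was above 0, at 0.25, with 3 of 10 below 0. Set against the nuclear subunits, the median of the mitochondrial genes differed by -0.24 in HCT116 and 0.14 in A549 on the log2 scale, and by -0.17 and 0.25 under quantile normalization.

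Electron carriers and subunits with other names numbered 11, all measured, and in A549 all 11 were below 0, where 55.6% of all genes were, with a median of -0.27, of which 5 stayed below 0 under quantile normalization. GPD2, which feeds electrons from glycerol phosphate to ubiquinone, was the 1 past 2-fold lower, a size that 5.57% of all genes reached, with 3.18, 2.80, 2.59 and 1.06 on the 4 arrays and a change of -1.53. ETFB (-0.80), ETFA (-0.79) and DHODH (-0.77), which also lead electrons to ubiquinone, and CYC1 (-0.65), the cytochrome c1 of complex III, also passed 1.5-fold lower in A549, so that 5 of 11 did, against 15.3% of all genes. In HCT116 the list had a median of 0.03, with 5 of 11 below 0, against 55.5% of all genes.

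Assembly factors, which build the complexes without staying in them, were measured in 43 of 47 cases. They had a median of 0.08 in HCT116, with 15 of 43 below 0 (55.5% of all genes), and -0.26 in A549, with 34 of 43 below 0 (55.6% of all genes) and 28 of 43 under quantile normalization. COX15, which makes heme A for complex IV, was the 1 past 2-fold, at -1.15 in A549, where 5.57% of all genes passed 2-fold lower. With normexp correction COX15 did not pass 2-fold. Its change in HCT116 was -0.44, and its probe lay in an area of stray signal on HCT116 miR-891b. Of 18 matrix enzymes that supply NADH and succinate, 0 passed 2-fold in either line, with medians of -0.02 and -0.12. Over all genes 0.843% passed 2-fold lower and 1.16% higher in HCT116, and 9.58% passed in either direction in A549. The count of 0 of 18 is therefore not read as a result about these enzymes.

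Of 15 regulators of mitochondrial gene expression on the array, 14 were measured in HCT116 and 15 in A549, with medians of 0.05 and -0.14. TFAM, which packages and transcribes mitochondrial DNA, had 4.71, 4.74, 5.18 and 3.70, a change of 0.03 in HCT116 and -1.49 in A549, where it stayed at -1.31 under quantile normalization. GABPB1, a subunit of the factor GABP, had -0.10, 0.36, 1.56 and 0.26, with 0.46 in HCT116 and -1.30 in A549. PPARGC1B, a coactivator, had 1.13 in A549. With normexp correction GABPB1 had -0.83 and PPARGC1B 0.68 in A549, short of 2-fold. In the same line NRF1 and YY1 had -0.32 and -0.24. PPARGC1A was at least 9.18-fold higher in A549 NC1 than in HCT116 NC1, where it was not well above background. Beside these, 10 of 10 genes of dividing cells passed 2-fold lower in A549, where 5.57% of all genes did, with a median of -1.78. In HCT116 0 of 10 did, where 0.843% of all genes did, with a median of 0.05. Their part in the subunit changes was not tested.

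Promoters are shown because known factors bind many of them. RefSeq promoters (GRCh38.p14, 250 bases before to 50 after the start) were matched for 68 of 83 subunits and set beside 15843 promoters of coding genes, and both strands were searched. The NRF1 core CGCATGCG was in 10 of 68 (14.7%), against 2.88% of all. The ETS motif CCGGAAG was in 19 (27.9%), against 14.2%, and the YY1 core AAGATGG in 16 (23.5%), against 6.40%. At least 1 of the 3 motifs was in 36 (52.9%), against 21.4%. All 3 were in ATP5I (chr4:674227-674526, minus strand) and ATP5J (chr21:25735005-25735304, minus strand), printed 5′ to 3′ along the gene with the motifs in capitals.
ATP5I: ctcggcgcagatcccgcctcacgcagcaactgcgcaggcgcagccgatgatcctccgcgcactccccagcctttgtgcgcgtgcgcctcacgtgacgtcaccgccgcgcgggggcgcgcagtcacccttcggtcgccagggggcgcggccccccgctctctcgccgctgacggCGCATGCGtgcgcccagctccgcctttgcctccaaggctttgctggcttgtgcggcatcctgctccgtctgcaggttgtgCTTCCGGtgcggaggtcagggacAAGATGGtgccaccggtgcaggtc
ATP5J: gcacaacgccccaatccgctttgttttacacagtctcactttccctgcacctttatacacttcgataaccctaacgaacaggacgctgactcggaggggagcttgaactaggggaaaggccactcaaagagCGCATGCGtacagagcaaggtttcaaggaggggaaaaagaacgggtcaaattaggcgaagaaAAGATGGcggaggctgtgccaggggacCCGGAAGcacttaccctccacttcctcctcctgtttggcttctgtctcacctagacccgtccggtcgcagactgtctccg
ATP5I, the e subunit of the membrane part, changed by -0.09 in HCT116 and -0.19 in A549, and ATP5J, coupling factor 6 of the peripheral stalk, by -0.01 and -0.41. In A549 the median change was -0.40 for the 16 subunits with the YY1 core and -0.29 for 48 without it, -0.25 with the ETS motif and -0.33 without, and -0.28 with the NRF1 core and -0.30 without. In HCT116 these medians lay between -0.13 and -0.08. These differences between medians were not tested.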

How the data were processed

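Total RNA of 4 samples (100 ng each, Cy3) was hybridised to Agilent 1-colour arrays, per the labels. The deposited scanner files hold intensity values that the authors obtained with Feature Extraction 11.5.1.1, per the file headers and the submitters' processing notes, and probe coordinates are on hg19. The deposited table of the authors' values holds log2 values. Set against the main setting below, they differed by a median of at most 0.0069 per array, which gives their scale, centring and direction, and they were an alternative. Their column medians were -3.80 (NC1) and -3.60 (miR-891b) for HCT116 and -3.71 (NC1) and -3.68 (miR-891b) for A549.

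Outlier-marked spots were dropped, log2 processed signals of repeated spots were averaged per probe, and each array's 75th percentile of its 58201 gene probes was subtracted. Processed signal at that percentile was 54.9, 57.0, 74.8 and 74.2 in the same order, and 26752, 26010, 29135 and 29258 probes were well above background. No gene spot was saturated. A gene was read from its probe with the highest mean, changes are differences of 2 arrays, and calls are at 2-fold or more. Medians, counts and shares over lists stand beside those over all measured genes.

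The members and lists were chosen with earlier results of these data known. Named are every member past 2-fold, the lowest and highest measured change and the brightest probe of each complex with their 4 values, and others by their changes, counts or ranges. The values of 1 subunit are not reported here by name, and it stays in the counts and medians. Areas of stray signal (within 10 rows and columns, at least 10% of otherwise dim spots well above background) follow a definition made after the data were seen, as does the comparison with the share of G and C. The RefSeq table held 68 of the 89 names as current symbols and 20 as older ones, and 1 was unmatched. Promoters came from RefSeq, GRCh38.p14.

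Alternatives were quantile normalization, normexp (offset 50) with quantile normalization in limma 3.58.1 (R 4.3.3), median scaling, the authors' values, other probe and filter rules, calls at 1.5-fold, probes outside stray areas, and bright genes as the comparison. Other values came from Python 3.11.15, numpy 2.4.6 and pandas 2.3.3. The counting steps were tested on simulated data. The labels do not say whether cultures were pooled.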

Additional observations from a re-analysis of the deposited data

Results flagged for a closer look

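Some values had opposite signs in the lines after miR-891b, and none of these differences between lines was tested. By its brightest probe each gene below passed the median SD of repeated spots, 0.061 in HCT116 and 0.071 in A549. That SD comes from probes printed at 5 or more spots and covers neither arrays nor scaling. In HCT116 NDUFA5 and NDUFA9 lay close to it. For the subunits, the change in A549 minus that in HCT116 was 0.57 for NDUFV3 (0.41 against -0.17), -0.42 for NDUFS5 (-0.31 against 0.10), -0.37 for NDUFA9 (-0.28 against 0.09) and -0.33 for NDUFA5 (-0.25 against 0.08). Of these, NDUFS5 was above 0 in A549 under quantile normalization, and the second probe of NDUFV3 did not show the opposite signs. The antisense RNA NDUFB2-AS1 differed by -0.42 (-0.21 against 0.21), and its second probe gave 1.15 in A549.

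Medians of gene lists also lay on opposite sides of 0. The assembly factors differed by -0.34 between lines, the electron carriers and subunits with other names by -0.31, the regulators of mitochondrial gene expression by -0.19 and the genes of dividing cells by -1.83. Under quantile normalization the carriers had a median above 0 in both lines, at 0.09 in HCT116 and 0.05 in A549.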

How the results depend on the processing

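With 1 array per group no replicate could be left out. No paired analysis was possible because the groups compared share fewer than 2 replicate numbers. In both lines 0 subunits passed 2-fold under every alternative that kept the 2-fold threshold. At 1.5-fold, 1 subunit was higher in HCT116, 2 were lower in A549, and 12 were lower and 10 higher between the lines. Between the lines 1 subunit was lower and 5 were higher with either quantile setting, 1 was lower with median scaling and 5 were lower with no filter on dim probes.

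Quantile normalization turned the subunit median to 0.02 in HCT116 and 0.09 between the lines and moved it to -0.0025 in A549. Relative to all genes these medians were 0.05, 0.17 and -0.0047. With normexp correction as well they were 0.02 (HCT116), 0.10 (between lines) and 0.02 (A549), and relative to all genes 0.04, 0.13 and 0.02. Quantile normalization also turned the medians of complexes I, III, IV and V in HCT116 (0.03, 0.10, 0.01 and 0.05), of III, IV and V in A549 (0.06, 0.14 and 0.03) and of I and V between the lines (0.09 and 0.10). With normexp those that turned were I, III and V in HCT116 (0.02, 0.10 and 0.04), III, IV and V in A549 (0.04, 0.10 and 0.05) and I and V between the lines (0.07 and 0.12). The median of all genes in A549 was 0.0021, 0.0045 and 0.0034 with quantile, normexp and median scaling. Median scaling gave 0.0020 for complex III in HCT116 and -0.0012 for the subunits between the lines.

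With no filter on dim probes the median of all genes in HCT116 was 0.20, the subunits relative to it were at -0.27 in HCT116 and 0.30 between the lines, and complex IV between the lines was at -0.07. Relative to bright genes the subunit medians were 0.02 in HCT116, -0.02 in A549 and 0.26 between the lines. The causes of these shifts were not tested. Signal over background limits the 6 isoforms, and 61 subunits rest on 1 probe.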
